A study of Mus musculus with 12 samples.

Results

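Astrocytes and Bergmann glia are the glial cells of the cerebellar cortex, and 35 of their marker genes were followed across cultures of cerebellar granule cells. The markers were chosen by name, and each gene was read from 1 probe set: among those annotated to that symbol alone, the one with the highest mean over the 12 arrays. All 35 had such a probe set, out of 18194 genes named in this way. Of these, 33 stood above a level of 4 on the log2 scale on at least 3 of the 12 arrays, the filter used for every test, while Hes5 and Gjb6 did not. The list was split by textbook role into 18 genes of mature astrocytes, 10 of Bergmann and radial glia and 7 that injured or reactive glia are known to raise.

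The cultures came from lethargic mice on a 129/SvJ background, which carry a mutation of Cacnb4, so no group, eGFP included, made a normal β4 calcium channel subunit from its own genome. Cells taken at postnatal day 7 were given lentivirus for 12 hours right after plating, which carried eGFP in the control cultures and the β4a, β4b or β4e splice variant in the others, and RNA was made after 9 days in vitro. The antimitotic drug Ara-C was added 24 hours after plating against non-neuronal cells, in medium with 10% fetal calf serum. Each group had 3 arrays, and the titles numbered them 1 to 3 in every group. The promoter of the virus, the share of cells that took it up and the number of animals behind a culture were not given in the sources used here, so the p-values measure the spread between these samples, which may be technical.

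Astrocytes take up glutamate and GABA, buffer potassium and water, and share metabolites through gap junctions. Bergmann glia are the radial astrocytes of the cerebellum: their fibres run beside Purkinje dendrites, guide migrating granule cells and keep several genes of the embryonic radial glia. Injured astrocytes raise intermediate filaments and secreted proteins. Several of these genes are also made elsewhere: Sox2, Fabp7 and Ptprz1 in progenitors, Aldoc in Purkinje cells, Apoe in microglia, and Vim and Tnc in fibroblasts.

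Every value below is a log2 GCRMA intensity or a difference of such intensities, and levels are compared within a gene only. Markers of the labelled cell type were present: Gabra6, a GABA receptor subunit of mature granule cells, lay between 13.58 and 14.02 on all 12 arrays, and the mean of 11 granule cell markers between 11.78 and 12.26. The Cacnb4 probe set with the highest mean lay between 11.80 and 12.24 in all groups, eGFP included. Another averaged 9.74 with eGFP and 10.02, 10.18 and 9.88 with β4a, β4b and β4e. A further one averaged 10.88 with eGFP and 10.64, 10.53 and 10.73 with the variants. The sources used here did not give their positions relative to the viral sequence, so they gave no check of the labels. Arrays that shared a replicate number resembled each other. The 18 pairs of arrays that shared a number across groups deviated from their group means together (r across probe sets 0.699 to 0.884), and the other pairs reached at most 0.146. Differences are therefore given within each number, in the order 1, 2 and 3, and the fit with the number as a block is given beside the fit without it.

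The glutamate transporter Slc1a3, the main one of Bergmann glia, had the largest mean difference from the control of the 33 tested genes with each variant. It was at 10.05, 7.79 and 8.84 with eGFP, 9.73, 9.82 and 11.19 with β4a, 9.57, 10.26 and 11.42 with β4b and 9.72, 10.36 and 10.06 with β4e on the arrays numbered 1, 2 and 3. The eGFP arrays of numbers 2 and 3 were the lowest of the 12, the eGFP array of number 1 lay among the variant arrays, and the groups overlapped. Within numbers 1, 2 and 3 the differences from eGFP were -0.32, 2.04 and 2.35 with β4a, -0.49, 2.47 and 2.58 with β4b and -0.33, 2.57 and 1.23 with β4e. The mean differences of 1.36 ± 0.63 (SE, n = 3 each), 1.52 ± 0.63 and 1.15 ± 0.63 correspond to 2.56-fold, 2.87-fold and 2.23-fold. In limma with Benjamini-Hochberg adjustment over all 23044 probe sets tested, none of the 3 differences passed (adjusted p = 0.9999 each), and with the block they did not pass either (adjusted p = 0.302, 0.192 and 0.892). Fewer glial cells and less RNA per glial cell cannot be told apart in such cultures.

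**Figure D1:**
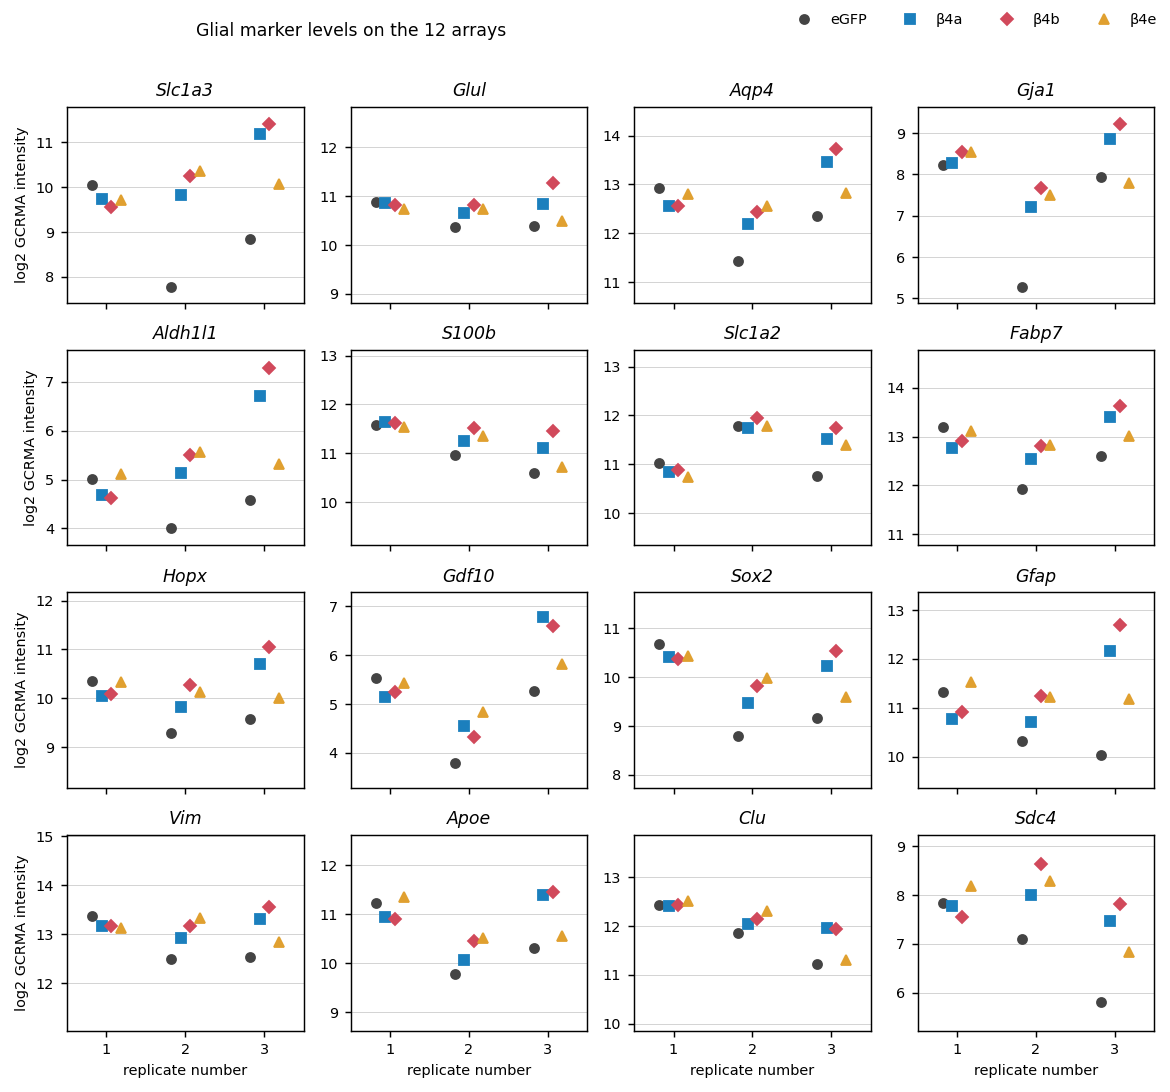
Log2 GCRMA intensity (vertical axes, each centred on its gene) of 16 glial genes on the 12 arrays, by replicate number (horizontal axes) and group (symbols, 1 array each). The eGFP circles of numbers 2 and 3 lie at or near the bottom in most panels, as for Slc1a3 at 7.79 and 8.84, and level with the variants or above them in number 1.

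The sequences just before the start of Slc1a3, Gja1 and Gfap are shown because these genes stood among the furthest from eGFP (Slc1a3, Gja1) or define the lineage (Gfap). They are the 250 bases before the gene start from RefSeq on build GRCm38.p6, at chr15:8710808-8711057 on the minus strand, chr10:56377050-56377299 on the plus strand and chr11:102897201-102897450 on the minus strand, written 5′ to 3′ along the gene. Capitals mark matches to 5 motifs of factors known in glia, searched on both strands, so that a match on the other strand shows its reverse complement.
Slc1a3: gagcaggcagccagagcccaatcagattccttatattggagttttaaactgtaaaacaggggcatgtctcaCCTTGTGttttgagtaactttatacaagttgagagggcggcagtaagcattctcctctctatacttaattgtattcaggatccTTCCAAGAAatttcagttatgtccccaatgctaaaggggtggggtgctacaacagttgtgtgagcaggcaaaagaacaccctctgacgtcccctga
Gja1: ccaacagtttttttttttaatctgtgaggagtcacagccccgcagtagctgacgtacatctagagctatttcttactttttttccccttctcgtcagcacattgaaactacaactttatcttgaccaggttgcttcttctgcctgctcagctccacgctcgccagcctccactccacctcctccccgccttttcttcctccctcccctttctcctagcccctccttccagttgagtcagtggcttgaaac
Gfap: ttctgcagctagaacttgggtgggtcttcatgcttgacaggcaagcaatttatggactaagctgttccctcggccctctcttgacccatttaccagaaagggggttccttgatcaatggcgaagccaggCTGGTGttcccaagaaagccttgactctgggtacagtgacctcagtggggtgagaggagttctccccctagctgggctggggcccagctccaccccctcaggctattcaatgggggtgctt
STAT factors were searched by TTCNNNGAA, and NFI factors by their palindrome and by its single site, TTGGCA. The letters for SOX factors were ACAANG, and those for HES factors were CACNAG. A match to STAT stood in the windows of Slc1a3, Aldoc, Acsbg1 and Ntsr2. These were 10.5% of the 38 windows of 31 glial genes in the table, against 7.02% of all 32851. In Slc1a3 the match began 96 bases before the start, and a SOX and a HES match overlapped further upstream, from 179 and 178 bases before it. Gfap held 1 HES match, 121 bases before its start, and the Gja1 window held none of the 5. Shares for SOX were 28.9% of the glial windows against 36.3% of all, for HES 36.8% against 36.7%, for the single NFI site 10.5% against 12.3%, and the NFI palindrome was in 0 glial windows against 0.0365%. A match describes letters and is no binding site. The table held no window for Sox9, Aqp4, Clu and Sparcl1.

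Other genes of neurotransmitter handling had smaller differences. Glul, the glutamine synthetase that turns glutamate into glutamine, was at 10.87, 10.37 and 10.39 with eGFP, 10.87, 10.66 and 10.83 with β4a, 10.83, 10.83 and 11.27 with β4b and 10.74, 10.74 and 10.49 with β4e. Its eGFP arrays of numbers 2 and 3 were again the lowest of the 12, and β4b differed from eGFP by -0.05, 0.46 and 0.88. Slc1a2, the second glial glutamate transporter, was at 11.02, 11.78 and 10.76 with eGFP, 10.84, 11.74 and 11.51 with β4a, 10.87, 11.95 and 11.75 with β4b and 10.74, 11.78 and 11.40 with β4e. It was highest in number 2 in every group, and β4a, β4b and β4e had their lowest array in number 1. Of its 2 other tested probe sets, one gave mean differences of 0.063, 0.48 and 0.036 and the other of -0.0014, -0.085 and -0.13. The GABA transporter Slc6a11 was near the filter, between 3.47 and 4.77, and differed by 0.05, -0.27 and -0.17 with β4a, β4b and β4e.

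For genes of water, potassium and bicarbonate transport, eGFP was the lowest of the 4 arrays in numbers 2 and 3. The water channel Aqp4 was at 12.92, 11.42 and 12.35 with eGFP, 12.55, 12.18 and 13.46 with β4a, 12.57, 12.44 and 13.73 with β4b and 12.81, 12.56 and 12.83 with β4e. The eGFP arrays of numbers 2 and 3 lay below every variant array of their own number, by up to 1.38, and the eGFP array of number 1 above the variants of its number. The inward rectifier potassium channel Kcnj10 lay between 8.81 and 9.75 and the bicarbonate cotransporter Slc4a4 between 10.49 and 11.24, and for both β4b replicate 3 was the highest array. Mlc1, a membrane protein of astrocyte endfeet, had wider differences: β4b differed from eGFP by -0.47, 1.0 and 2.91 and β4a by -0.45, 0.72 and 2.72.

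The gap junction gene Gja1, a connexin of astrocytes, was at 8.22, 5.29 and 7.95 with eGFP, 8.29, 7.22 and 8.86 with β4a, 8.55, 7.67 and 9.23 with β4b and 8.55, 7.49 and 7.78 with β4e. Number 2 held the lowest array of each group, and eGFP replicate 2 stood apart at 5.29. Its differences from eGFP were 0.06, 1.93 and 0.91 with β4a, 0.33, 2.38 and 1.28 with β4b and 0.33, 2.20 and -0.16 with β4e, so the largest difference was in number 2 each time. In the fit without the block, leaving out eGFP replicate 2 moved the mean difference with β4e from 0.79 to -0.14. That fit kept β4e replicate 2, from the number that was low in every group, so it did not compare like numbers. Within numbers 1 and 3 the matched differences were 0.33 and -0.16. The second astrocyte connexin, Gjb6, lay between 2.08 and 2.83, below the filter on every array.

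Of the metabolic genes, the folate enzyme Aldh1l1, a general astrocyte marker, was at 5.01, 4.02 and 4.58 with eGFP, 4.68, 5.13 and 6.71 with β4a, 4.62, 5.50 and 7.29 with β4b and 5.11, 5.57 and 5.31 with β4e. With β4e all 3 arrays lay above all 3 eGFP arrays, and it was the only one of the 33 genes whose groups did not overlap in a comparison with eGFP. Across all probe sets tested 2.16% did not overlap between β4e and eGFP. The arrays of number 1 with β4a and β4b lay within the eGFP range, and those of number 3 were the highest of the 12. Acsbg1, an acyl-CoA synthetase, differed by -0.35, 0.82 and 1.63 with β4b, the glycolytic Aldoc by -0.36, 0.53 and 0.82, and Dio2, the deiodinase that activates thyroid hormone, stayed between 3.66 and 4.71.

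S100b, a calcium-binding protein of astrocytes, was at 11.58, 10.96 and 10.59 with eGFP, 11.64, 11.25 and 11.11 with β4a, 11.63, 11.53 and 11.46 with β4b and 11.53, 11.35 and 10.72 with β4e. Its arrays of number 1 were within 0.11 of each other, and β4b differed from eGFP by 0.04, 0.57 and 0.87. The endothelin receptor Ednrb differed by -0.26, 1.33 and 1.29 with β4a and -0.43, 1.04 and 1.91 with β4b. Both remaining receptors lay near the filter: the neurotensin receptor Ntsr2 lay between 3.67 and 4.87 and the growth factor receptor Fgfr3 between 4.34 and 5.50.

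All 9 tested genes of Bergmann and radial glia had eGFP as the lowest array in numbers 2 and 3. Fabp7, the brain lipid-binding protein of radial glia, was at 13.18, 11.93 and 12.60 with eGFP, 12.77, 12.54 and 13.41 with β4a, 12.91, 12.81 and 13.62 with β4b and 13.11, 12.84 and 13.02 with β4e. Hopx, a homeodomain protein of Bergmann and radial glia, was at 10.35, 9.28 and 9.58 with eGFP, 10.04, 9.83 and 10.70 with β4a, 10.09, 10.27 and 11.05 with β4b and 10.33, 10.13 and 10.00 with β4e. In both, eGFP replicates 2 and 3 lay below the variants of their number and eGFP replicate 1 above them, and the groups overlapped. Gdf10, a secreted factor that marks Bergmann glia within the cerebellum, was at 5.52, 3.79 and 5.26 with eGFP, 5.14, 4.54 and 6.78 with β4a, 5.24, 4.32 and 6.59 with β4b and 5.42, 4.83 and 5.83 with β4e. It was lowest in number 2 in every group, and β4a replicate 3 and β4b replicate 3 were its highest arrays.

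Of the transcription factors, Sox2 was at 10.67, 8.79 and 9.16 with eGFP, 10.41, 9.47 and 10.23 with β4a, 10.36, 9.82 and 10.54 with β4b and 10.44, 9.97 and 9.59 with β4e. Sox9 was close to the filter, at 4.67, 4.04 and 3.96 with eGFP, 4.38, 4.15 and 4.80 with β4a, 4.39, 4.40 and 5.53 with β4b and 4.54, 4.26 and 4.24 with β4e. Id4, an inhibitor of basic helix-loop-helix factors, was at 8.33, 6.59 and 7.89 with eGFP, 8.01, 7.48 and 9.45 with β4a, 7.91, 7.62 and 9.62 with β4b and 8.0, 7.54 and 8.66 with β4e. For all 3, eGFP was the highest of the 4 arrays in number 1 and the lowest in numbers 2 and 3, and the groups overlapped. Another Sox9 probe set differed by -0.024 with β4e, against 0.12. Hes5, a target of Notch signalling, lay between 3.23 and 3.73 and was not tested.

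Genes of the glial surface and matrix followed. Brevican (Bcan), a proteoglycan, was at 7.25, 5.98 and 6.23 with eGFP, 7.32, 6.38 and 6.90 with β4a, 7.26, 6.68 and 7.15 with β4b and 7.02, 7.03 and 6.59 with β4e, with eGFP lowest in numbers 2 and 3. The receptor phosphatase Ptprz1 differed by -0.04, 0.04 and 0.71 with β4a, -0.31, 0.41 and 0.75 with β4b and 0.02, 0.85 and 0.18 with β4e. Tenascin C (Tnc) had the lowest difference of the list within a number, -1.26 with β4b in number 1, beside 0.64 and 1.53 in numbers 2 and 3.

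All 7 reactive genes had eGFP as the lowest array in numbers 2 and 3. The intermediate filament Gfap, the classical marker of astrocytes, was at 11.32, 10.31 and 10.03 with eGFP, 10.78, 10.71 and 12.16 with β4a, 10.91, 11.25 and 12.69 with β4b and 11.53, 11.22 and 11.18 with β4e. The arrays numbered 3 held both its lowest value, with eGFP, and its highest, with β4b. The second filament gene, Vim, was at 13.37, 12.50 and 12.54 with eGFP, 13.16, 12.92 and 13.31 with β4a, 13.16, 13.16 and 13.55 with β4b and 13.13, 13.32 and 12.83 with β4e. The lipid carrier Apoe was at 11.23, 9.78 and 10.32 with eGFP, 10.94, 10.07 and 11.41 with β4a, 10.91, 10.44 and 11.46 with β4b and 11.35, 10.51 and 10.55 with β4e. Neither separated the groups, and both had their highest array with β4b in number 3. The secreted chaperone Clu was at 12.44, 11.86 and 11.22 with eGFP, 12.41, 12.04 and 11.96 with β4a, 12.44, 12.14 and 11.94 with β4b and 12.51, 12.32 and 11.30 with β4e. It was highest in number 1 and lowest in number 3 in every group, and in number 1 the 4 arrays lay within 0.10 of each other.

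The heparan sulfate proteoglycan Sdc4 was at 7.84, 7.10 and 5.82 with eGFP, 7.78, 8.01 and 7.46 with β4a, 7.55, 8.64 and 7.83 with β4b and 8.18, 8.30 and 6.84 with β4e. It was the one gene at an unadjusted p under 0.05 with the block in each of the 3 comparisons with eGFP, which share the same eGFP arrays. Its differences were -0.06, 0.91 and 1.65 with β4a, -0.29, 1.54 and 2.01 with β4b and 0.34, 1.20 and 1.02 with β4e, and its second probe set differed by 1.06, 1.46 and 0.77 on average. Id3, a further inhibitor of helix-loop-helix factors, differed by -0.45, 1.31 and 2.21 with β4b, and the matrix protein Sparcl1, which promotes synapse formation, by -0.33, 0.71 and 1.09.

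With β4a, glial genes stood above eGFP in numbers 2 and 3 and mostly below it in number 1, by less. Of the 33 genes tested 32 had a higher mean than with eGFP, with a median difference of 0.36 (range -0.03 to 1.36). Over 1 probe set for each of the 10976 genes tested, 56.7% were higher and the median was 0.03. The medians of mature, Bergmann and reactive genes were 0.27, 0.38 and 0.41. Within numbers 1, 2 and 3 the median over all 33 was -0.27, 0.40 and 0.88, with 5, 31 and 33 genes above eGFP. By limma with Benjamini-Hochberg adjustment, 0 passed without the block (background 0% of probe sets) and 0 with it (background 0.013%). At an unadjusted p under 0.05, 0 were higher without the block (background 1.21%) and 3 with it (background 8.21%). With the block 0 were lower (background 7.13%). The 3 with the block were Slc1a3, Gja1 and Sdc4 (differences 1.36, 0.97 and 0.83, unadjusted p = 0.0385, 0.044 and 0.0472). That share of 9.09% lay near the background. Groups overlapped for each of the 33 genes (background 4.46% with no overlap).

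With β4b the pattern was the same with larger values, and β4b replicate 3 was the highest of the 12 arrays for 21 of the 33 genes. Of the 33 genes tested 31 had a higher mean than with eGFP, with a median difference of 0.53 (range -0.27 to 1.52). Over 1 probe set for each of the 10976 genes tested, 59% were higher and the median was 0.04. The medians of mature, Bergmann and reactive genes were 0.43, 0.54 and 0.49. Within numbers 1, 2 and 3 the median over all 33 was -0.31, 0.66 and 1.14, with 5, 29 and 33 genes above eGFP. By limma with Benjamini-Hochberg adjustment, 0 passed without the block (background 0% of probe sets) and 0 with it (background 0.013%). At an unadjusted p under 0.05, 2 were higher without the block (background 2.17%) and 10 with it (background 11.6%). With the block 0 were lower (background 7.72%). The 2 without it were Slc1a3 and Glul. The 10 with it were 5 mature genes, Slc1a3 (1.52), Gja1 (1.33), Aldh1l1 (1.26), S100b (0.50) and Glul (0.43), 4 Bergmann and radial genes, Id4 (0.78), Hopx (0.73), Sox2 (0.70) and Bcan (0.54), and the reactive gene Sdc4 (1.09). This was 30.3% of the list, and the smallest adjusted p with the block was 0.147, of S100b. No gene separated the groups (background 5.64%). When eGFP replicate 1 was left out of the blocked fit, 1 member passed: Slc1a3 differed by 2.38 (limma adjusted p = 0.0472). In that fit 61 of all 23044 probe sets passed, against 3 with all 12 arrays. Without any other single array no member passed.

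With β4e, glial genes stood highest over eGFP in number 2, and in number 1 the list lay close to eGFP. Of the 33 genes tested 31 had a higher mean than with eGFP, with a median difference of 0.36 (range -0.17 to 1.15). Over 1 probe set for each of the 10976 genes tested, 60.6% were higher and the median was 0.03. The medians of mature, Bergmann and reactive genes were 0.19, 0.41 and 0.36. Within numbers 1, 2 and 3 the median over all 33 was -0.07, 0.84 and 0.31, with 14, 31 and 31 genes above eGFP. By limma with Benjamini-Hochberg adjustment, 0 passed without the block (background 0% of probe sets) and 0 with it (background 0%). At an unadjusted p under 0.05, 0 were higher without the block (background 0.295%) and 1 with it (background 3.14%). With the block 0 were lower (background 2.4%). The single gene with the block was Sdc4 (difference 0.85, unadjusted p = 0.0427, limma adjusted p = 0.892). All 7 reactive genes had a higher mean, as did all 9 Bergmann and radial genes tested, and the exceptions were Ntsr2 (-0.09) and Slc6a11 (-0.17). These 2 were also the ones below eGFP with β4b (-0.08 and -0.27), and with β4a Ntsr2 alone was (-0.03). The 3 comparisons share the eGFP arrays, so their values are not independent of each other.

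**Figure D2:**
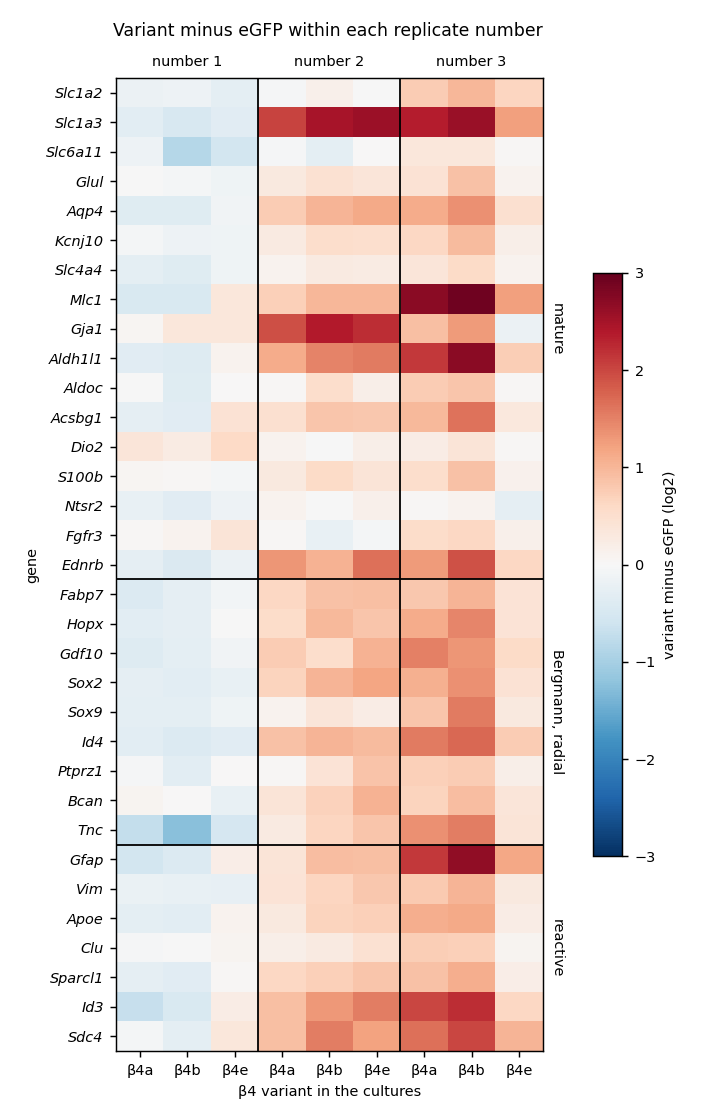
Heat map of the log2 difference from eGFP (colour bar, red above and blue below 0) of the 33 tested glial genes (rows) for each variant within each replicate number (columns, 1 array against 1 array). Number 1 is mostly pale blue and numbers 2 and 3 mostly red, as for Slc1a3 with β4b at -0.49, 2.47 and 2.58.

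Whether the variants differed among themselves was asked in 3 pairs. The median difference over the 33 genes was -0.16 for β4a minus β4b, 0.06 for β4a minus β4e and 0.20 for β4b minus β4e. In limma with Benjamini-Hochberg adjustment none of the 33 passed in any pair, with or without the block, and the smallest adjusted p of a member with it was 0.997, 0.834 and 0.702. Of all probe sets 0% passed with the block in each pair. At an unadjusted p under 0.05 the block gave 0, 0 and 0 members (background 2.69%, 6.33% and 7.11%). The variants' glial levels were thus not told apart at 3 arrays each, which does not show that they act alike: for Slc1a3 β4b minus β4e was 0.37 ± 0.63 (SE), and within numbers 1, 2 and 3 it was -0.15, -0.10 and 1.35. Over the 33 genes β4b minus β4e had medians of -0.25, -0.07 and 0.89 within numbers 1, 2 and 3, with 5, 13 and 33 genes above. In number 3 β4b stood above β4e also for Aldh1l1 (1.98) and Gfap (1.51), against -0.07 and 0.03 in number 2 and -0.49 and -0.62 in number 1. Without the block, the F test for any difference among the 4 groups also called none of the 33 (background 0%), and 0 had an unadjusted p under 0.05 (background 0.759%). With the block it called none either (background 0%), and 0 had an unadjusted p under 0.05 (background 11.7%).

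Most glial differences had another sign in number 1 than in numbers 2 and 3. In number 2 eGFP was the lowest of the 4 arrays for 28 of the 33 genes (35.1% of all probe sets) and in number 3 for 31 (31.3%). In number 1 it was the lowest for 3, Gja1, Dio2 and Fgfr3 (26.1%), and the highest for 17 (23.3%). Both features together, eGFP highest in number 1 and lowest in numbers 2 and 3, held for 14 genes: Slc1a3, Glul, Aqp4, Kcnj10, Slc4a4, Ednrb, Fabp7, Hopx, Gdf10, Sox2, Sox9, Id4, Tnc and Vim. Of all probe sets 2.79% did so. Lowest in both numbers 2 and 3, whatever its place in number 1, eGFP was for 27 genes, 11 mature, 9 Bergmann or radial and 7 reactive (16.1% of all probe sets). Below eGFP in number 1 and above it in the others were 26 genes with β4a (14.2% of all probe sets), 26 with β4b (11.8%) and 17 with β4e (14%). Above it in all 3 numbers were 5 with β4a (Gja1, Dio2, S100b, Fgfr3 and Bcan), 3 with β4b (Gja1, S100b and Bcan) and 12 with β4e, Gfap, Aldh1l1 and Apoe among them, against 19.1%, 22.9% and 15.3% of all probe sets.

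**Figure D3:**
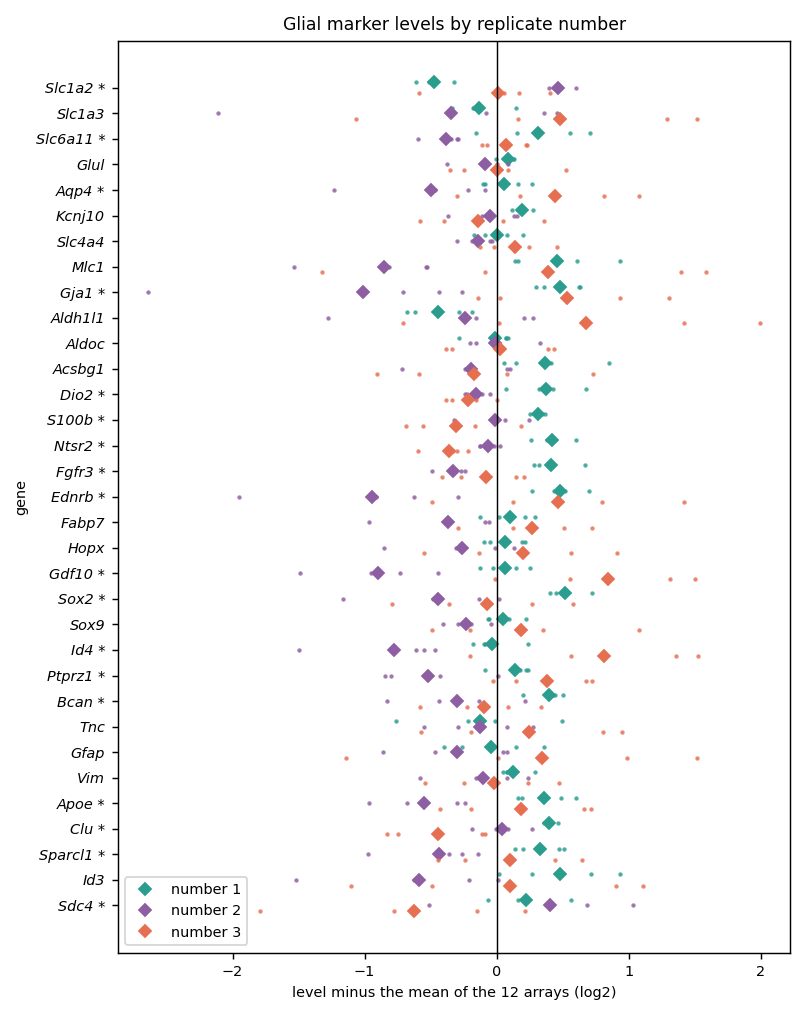
Log2 level of the 33 tested glial genes (rows) minus the gene's mean over the 12 arrays (horizontal axis). Small points are single arrays, diamonds are the mean of the 4 arrays of a replicate number, and a star marks the 18 genes that passed the F test for the number; Slc1a2 is highest in number 2 while Gdf10 is lowest there.

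Leaving out all 4 arrays of 1 number from the blocked fit, a check chosen after seeing the data, moved the counts for β4a, β4b and β4e. Without number 1 the list had medians of 0.71, 0.93 and 0.56 and 18, 27 and 11 genes higher at an unadjusted p under 0.05 (background 8.95%, 12% and 4.47%). Without number 2 it had medians of 0.36, 0.46 and 0.17 and 0, 0 and 0 genes higher at an unadjusted p under 0.05 (background 4.14%, 5.9% and 1.58%). Without number 3 it had medians of 0.11, 0.22 and 0.41 and 0, 1 and 2 genes higher at an unadjusted p under 0.05 (background 6.08%, 7.49% and 3.05%). In none of these fits did a glial gene pass the adjusted threshold (limma, Benjamini-Hochberg; background 0.00434%, 0.013% and 0% without number 1 and 0% in the others), and the smallest adjusted p was 0.115, with β4b and without number 1. Without number 3 the genes higher at that p were Gja1 with β4b, and Gja1 and Dio2 with β4e, and Slc6a11 was lower with β4b (-0.58, background 5.26%). Slc1a3 differed from eGFP with β4b by 1.01 to 2.38 when any single array was left out of the blocked fit.

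Glial genes also differed between the replicate numbers. A limma F test for the number called 18 of the 33 (54.5%), against 65.2% of all probe sets. Slc1a2 averaged 10.87, 11.81 and 11.35 over the 4 arrays of numbers 1, 2 and 3 (limma adjusted p = 0.00263), and Ntsr2 4.69, 4.20 and 3.91 (adjusted p = 0.000705). Gdf10 averaged 5.33, 4.37 and 6.11 (adjusted p = 0.00175) and Clu 12.45, 12.09 and 11.61 (adjusted p = 0.00397). These genes differed in which number was high, so the numbers did not share 1 order of glial levels. Number 2 was the lowest in every group for 10 genes, Slc6a11, Aqp4, Mlc1, Gja1, Ednrb, Fabp7, Gdf10, Id4, Ptprz1 and Apoe (15% of all probe sets), while for Slc1a2 it was the highest. Number 1 was the highest in every group for Dio2, S100b, Ntsr2, Fgfr3 and Clu (22.2%). Over the 33 genes a median of 46.6% of a gene's sum of squares lay between numbers and 21.5% between groups, against 64.2% and 12% over all probe sets. For Slc1a3, Glul, Kcnj10, Aldoc, Hopx, Sox9, Gfap and Vim more lay between groups than between numbers (42.1% against 14.4% for Slc1a3). For each of these but Glul the part in neither was larger than that between groups (43.5% for Slc1a3, 55.5% for Gfap and 74.4% for Aldoc). The share of all probe sets with more between groups than between numbers was not counted.

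Most further astrocyte genes outside the 35 also had higher means with the variants. The further lists too were chosen with earlier results of these data known. They were read from the same 12 arrays, so they are no independent support. Of 30 further astrocyte genes 21 were tested, and 18, 18 and 16 of them had a higher mean with β4a, β4b and β4e than with eGFP (medians 0.39, 0.53 and 0.37), against 56.7%, 59% and 60.6% of all genes. Their medians within numbers 1, 2 and 3 were -0.16, 0.40 and 0.87 with β4a, -0.16, 0.59 and 1.20 with β4b and 0.08, 0.47 and 0.41 with β4e. With the block 5, 7 and 2 were higher at an unadjusted p under 0.05 (background 8.21%, 11.6% and 3.14%) and 1, 1 and 0 lower (background 7.13%, 7.72% and 2.4%), and none passed the adjusted threshold in limma. F3 and Ppp1r3c were higher at that p with each variant, by 0.88, 1.04 and 0.75 and by 0.45, 0.64 and 0.41. The share of all probe sets higher at that p with each variant was not counted. Phgdh, the first enzyme of serine synthesis, differed by 1.03, 1.60 and 0.97, and not at that p with β4e. Pla2g7, a phospholipase, differed by 1.28, 1.74 and 1.11, at that p with β4b only. Of the 21 genes 3, 3 and 5 had a lower mean than with eGFP, Slc15a2 among them (-0.14, -0.38 and -0.22). Ntrk2, the BDNF receptor that neurons also carry, lay below eGFP (-0.30, -0.30 and -0.10) and was picked after its values were seen. Of 25 further reactive genes 20 were tested and 18, 19 and 18 stood above eGFP (medians 0.40, 0.44 and 0.19). Within numbers 1, 2 and 3 the medians of these were -0.10, 0.29 and 0.80 with β4a, 0.05, 0.45 and 0.81 with β4b and 0.16, 0.44 and 0.06 with β4e, so in number 1 the sign was not that of the 33 genes with β4b and β4e. With the block 3, 7 and 2 of the 20 further reactive genes were higher at an unadjusted p under 0.05 (background 8.21%, 11.6% and 3.14%). None was lower at that p (background 7.13%, 7.72% and 2.4%), and none passed the adjusted threshold in limma. The 13 tested regulators of glial fate had medians of -0.03, -0.02 and 0.01, near those of all genes.

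Markers of other cells were read beside the glial genes. Of 12 microglial genes 9 were tested, with Aif1, Itgam and P2ry12 below the filter, and their mean level ran from 6.54 to 7.06 with eGFP and 6.60 to 7.37 with the variants. Their medians within numbers 1, 2 and 3 were -0.45, 0.09 and 0.32 with β4a, -0.42, 0.36 and 0.39 with β4b and -0.32, 0.54 and 0.12 with β4e, the same signs as in the glial list. Of 12 granule cell genes 11 were tested, and 10, 9 and 6 stood below eGFP with β4a, β4b and β4e (medians -0.11, -0.08 and -0.03, mean level 11.96 to 12.11 with eGFP and 11.78 to 12.26 with the variants). Within numbers 1, 2 and 3 these medians were -0.16, -0.05 and -0.14 with β4a, 0.00, -0.12 and -0.13 with β4b and 0.23, -0.06 and -0.08 with β4e. With the block 1, 3 and 2 of the 11 were lower at an unadjusted p under 0.05 (background 7.13%, 7.72% and 2.4%). None was higher at that p (background 8.21%, 11.6% and 3.14%). The lower ones were Fat2 with each variant, Zic2 with β4b and β4e, and Grin2c with β4b. The cadherin Fat2 of granule cells, picked after its values were seen, differed by -0.45, -0.57 and -0.39. The 5 tested granule progenitor genes had medians of -0.01, 0.37 and -0.06 within numbers 1, 2 and 3 with β4a. They were -0.06, 0.37 and -0.10 with β4b and -0.09, 0.16 and 0.08 with β4e. Of 13 oligodendrocyte lineage genes 11 were tested, with 9, 11 and 8 above eGFP (medians 0.07, 0.22 and 0.06, mean level 7.06 to 8.22 with eGFP and 7.07 to 8.32 with the variants). Within numbers 1, 2 and 3 the medians were 0.08, 0.12 and 0.12 with β4a, 0.09, 0.31 and 0.34 with β4b and 0.00, 0.29 and 0.06 with β4e. With the block 2, 4 and 1 of the 11 were higher at an unadjusted p under 0.05 (background 8.21%, 11.6% and 3.14%). The 4 with β4b were Olig2, Pdgfra, Mag and Enpp6. Within numbers 1, 2 and 3 the 4 tested interneuron genes had medians of 0.14, -0.63 and -0.15 with β4a. They were 0.12, -0.23 and -0.45 with β4b and 0.39, -0.20 and -0.11 with β4e. The 4 tested Purkinje cell genes had 0.26, -0.22 and -0.19 with β4a, 0.30, -0.17 and -0.32 with β4b and 0.37, -0.18 and -0.29 with β4e. In both lists the signs were opposite to those of the glial list. The 8 tested fibroblast genes had medians of -0.01, 0.09 and 0.06 (mean level 5.13 to 6.14 with eGFP and 5.14 to 6.35 with the variants), and none of 9 endothelial genes reached the filter. Of 5 ependymal and choroid plexus genes 2 were tested, with Foxj1, Ccdc153 and Kl below the filter. Of the tested pair, Ttr, the thyroid hormone carrier of the choroid plexus, was at 14.14, 4.00 and 14.35 with eGFP, 12.61, 6.06 and 14.53 with β4a, 10.82, 7.97 and 14.34 with β4b and 11.79, 10.27 and 14.25 with β4e. It was low in number 2 in every group and lowest with eGFP. No gene of these lists passed the adjusted threshold in limma with or without the block, and their part in the glial differences was not tested.

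**Figure D4:**
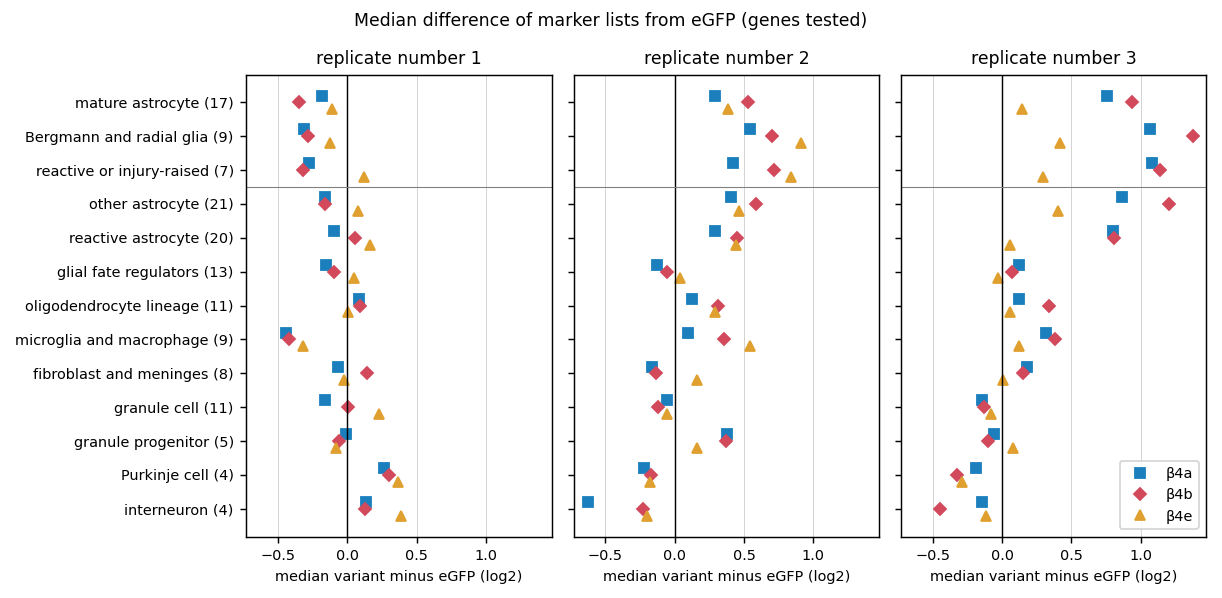
Median log2 difference from eGFP (horizontal axes) of each marker list (rows, with the number of genes tested) for the 3 variants (symbols), with a panel for each replicate number. The 3 glial subgroups above the grey line lie right of 0 in numbers 2 and 3, and left of 0 in number 1 except for the reactive genes with β4e.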

How the data were processed

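RNA of 12 cultures was amplified (500 ng each), given a biotin label in 3′ in vitro transcription and hybridised to 1 Affymetrix mouse array each, per the labels' protocols. The deposited values were log2 intensities made by the authors with GCRMA, per the submitters' processing notes. They ran from 1.27 to 15.0 and were used as deposited. Of 45101 probe sets, 34945 had 1 gene symbol, 932 several and 9160 none, and 64 controls were left out.

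Probe sets above 4 on at least 3 of 12 arrays (23044) were fitted in limma 3.58.1 (R 4.3.3; lmFit, eBayes, group means, two-sided, Benjamini-Hochberg, threshold 0.05), and again with the replicate number as a block. The numbers came from the titles, and the block was used because all 18 same-numbered pairs deviated together (r 0.699 or more). The fit was tested on simulated data. Array values are given for members with an unadjusted p under 0.05 in the blocked fit against eGFP, and for 14 defining genes. Members, lists and rules were chosen with earlier results of these data known. Alternatives were other filters, probe sets, each array left out and, chosen later, each replicate number left out. Promoter windows came from RefSeq. Only 3 arrays a group limit the precision.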

Additional observations from a re-analysis of the deposited data

Results flagged for a closer look

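The median difference of the 33 glial genes from eGFP had opposite signs in the replicate numbers for each variant. Within number 1 it was -0.27 with β4a, -0.31 with β4b and -0.0732 with β4e. Within number 2 it was 0.40, 0.66 and 0.84, and within number 3 0.88, 1.14 and 0.31. Each number holds 1 array a group and 1 eGFP array that the 3 variants share, so the difference between numbers was not tested.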

How the results depend on the processing

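With the replicate number as a block, or under another filter, 0 glial genes passed for any variant, as without it (unadjusted p under 0.05: 3, 10 and 1 with the block for β4a, β4b and β4e against 0, 2 and 0 without). Leaving out 1 array at a time from the blocked fit gave 0 to 1 genes for β4b, the 1 being Slc1a3 without eGFP replicate 1. In that fit 61 of all 23044 probe sets passed. The ranges that follow are from fits without the block. There, leaving out 1 array leaves the replicate numbers unequal between groups, so shifts between numbers enter the differences. The median difference of the list ran from 0.16 to 0.75 with β4a, 0.28 to 0.86 with β4b and 0.096 to 0.73 with β4e. Of 57 named differences, 11 changed sign when 1 array was left out, and ran, in log2, as follows: Slc1a2 from -0.039 to 0.47 with β4a and -0.12 to 0.42 with β4e, Gdf10 from -0.012 to 1.10 with β4a, -0.074 to 1.06 with β4b and -0.031 to 0.84 with β4e, Clu from -0.012 to 0.60 with β4a and -0.11 to 0.57 with β4e, and with β4e Gja1 from -0.14 to 1.32, S100b from -0.070 to 0.43, Sox9 from -0.0095 to 0.35 and Id4 from -0.043 to 0.82. One of 2 other tested probe sets turned the sign for Slc1a2 (-0.0014, -0.085 and -0.13 with β4a, β4b and β4e), and one did for Sox9 with β4e (-0.024). The cause was not tested.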

Other observations

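Of the reactive genes outside the list, Serpina3n, a protease inhibitor that reactive astrocytes raise, was at 10.12, 7.64 and 6.56 with eGFP, 9.90, 7.87 and 7.60 with β4a, 9.88, 7.98 and 7.61 with β4b and 10.02, 8.01 and 6.52 with β4e. It was highest in number 1 in every group. Lcn2, a secreted lipocalin of reactive astrocytes, was at 14.00, 13.87 and 12.70 with eGFP, 13.93, 14.01 and 13.31 with β4a, 14.04, 14.02 and 12.99 with β4b and 14.24, 14.19 and 12.62 with β4e. It was lowest in number 3 in every group. Cd44, a hyaluronan receptor, was at 11.47, 9.48 and 9.09 with eGFP, 11.12, 10.20 and 10.77 with β4a, 11.18, 10.50 and 10.89 with β4b and 11.19, 10.77 and 9.92 with β4e, with eGFP lowest in numbers 2 and 3. These 3 genes were picked after their values were seen.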
